A study of Mus musculus with 30 samples.

Results

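Interferon-gamma (IFNG) signals through receptor-bound JAK kinases to transcription factors of the STAT family, and cells carry several brakes on this route. The suppressors of cytokine signalling (SOCS proteins and the related Cish) bind JAKs or receptors and are themselves transcribed downstream of STATs, the tyrosine phosphatases Ptpn1, Ptpn2 and Ptpn6 remove phosphate from JAKs, STATs or receptors, and the PIAS proteins are SUMO ligases that bind STATs in the nucleus. In macrophages, Socs1 is known as the main restraint on the IFNG response and Socs3 as a restraint on signalling by IL-6 family cytokines.

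Here, 9 genes of these brakes, Socs1, Socs2, Socs3, Cish, Ptpn1, Ptpn2, Ptpn6, Pias1 and Pias3, were chosen by symbol and followed across all libraries. They are 9 of the 54146 gene identifiers in the table of counts, of which 29004 had at least 1 count. The series is RNA-seq of polyadenylated RNA from J774A.1, a mouse macrophage-like cell line. In all, 5 clones were sequenced, each with 3 untreated (UT) libraries and 3 libraries made 4 h after addition of 100 ng/mL mouse IFNG. The 3 wild-type clones (WT1, WT2 and WT3) were grown up from single cells and were not electroporated. The 2 knockout clones (KO1 and KO2) carry a homozygous CRISPR/Cas9 deletion of B2_Mm2.Dicer1, a transposon-derived element in the first intron of Dicer1, and only these went through editing. Each line is 1 clone, and libraries of 1 clone are not independent edited clones. The study's methods state that technical replicates were merged before counting, and the study describes replicate treatments of each line for a companion RT-qPCR experiment. Whether the 3 RNA-seq libraries of a clone came from separate cultures is not stated for them. In tests within or among single clones, p-values thus measure the spread between these libraries, which may be technical. Pooled and KO against WT tests had no clone term, so their p-values mix this spread with differences between clones. They treat 9 WT and 6 KO libraries per treatment as replicates, although these come from 3 and 2 clones.

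Counted fragments per library ranged from 15566122 to 37992642, with a median of 23682133.5. All 8 macrophage markers examined were above 1 CPM (the unit of level used here, scaled to each library's total with TMM factors) in every clone and treatment, with summed levels from 4276 to 6772 CPM. Of the T cell, B cell, fibroblast and epithelial markers, Lck reached at most 9.25 CPM and Pdgfra at most 2.85 CPM, while the others stayed below 1 CPM in every library. Lck, a kinase also found outside T cells, rose after IFNG (log2FC 1.27 in pooled WT and 1.21 in pooled KO) while the other T cell markers Cd3e, Cd3g and Cd8a stayed below 1 CPM, and its part in the results was not tested. Among the 8 macrophage markers, 1 rose and 3 fell in pooled WT (14.8% and 13.9% of all genes) and 1 rose and 1 fell in pooled KO (15.8% and 14.8%). In KO against WT, 4 of the 8 were higher and none lower in either treatment, with a median log2FC of 0.26 untreated and 0.31 after IFNG, where 12.2% and 10.9% of all genes were higher in KO. Adgre1 had the largest log2FC of these 4 in both treatments and ranged from 9.27 to 294 CPM over all libraries. The part of these marker differences in the results was not tested. Dicer1 in untreated cells was at 105 ± 7.2, 128 ± 3.0 and 123 ± 2.5 CPM in WT1, WT2 and WT3, against 71.5 ± 1.3 in KO1 and 105 ± 3.7 in KO2 (SD, n = 3 libraries each), so KO2 lay at the level of WT1. The treatment showed in Irf1, a transcription factor induced by interferons, which rose in pooled WT (log2FC = 5.10) and in pooled KO (log2FC = 5.13). The labels mention different RNA inputs and adapters but not which library had which, and neither could be checked as a batch. In bulk RNA, fewer cells expressing a gene and less RNA per cell cannot be told apart.

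The genes that responded most were Socs1, Socs3 and Cish, and the 300 bases around each RefSeq transcription start (250 before to 50 after, GRCm38.p6) are shown because they hold the letters of interferon response motifs. Capitals mark matches to TTCNNNGAA, the core of the gamma-activated site bound by STAT dimers, or to GAAANNGAAA, the core of the interferon-stimulated response element bound by IRF proteins, searched on both strands.
Socs1 promoter, chr16:10785487-10785786, minus strand: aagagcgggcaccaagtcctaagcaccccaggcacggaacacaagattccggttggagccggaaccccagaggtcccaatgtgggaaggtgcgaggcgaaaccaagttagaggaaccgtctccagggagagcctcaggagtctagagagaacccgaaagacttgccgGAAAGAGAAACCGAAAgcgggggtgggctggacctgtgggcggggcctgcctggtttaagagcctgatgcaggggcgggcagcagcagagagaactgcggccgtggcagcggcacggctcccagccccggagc
Socs3 promoter, chr11:117969317-117969616, minus strand: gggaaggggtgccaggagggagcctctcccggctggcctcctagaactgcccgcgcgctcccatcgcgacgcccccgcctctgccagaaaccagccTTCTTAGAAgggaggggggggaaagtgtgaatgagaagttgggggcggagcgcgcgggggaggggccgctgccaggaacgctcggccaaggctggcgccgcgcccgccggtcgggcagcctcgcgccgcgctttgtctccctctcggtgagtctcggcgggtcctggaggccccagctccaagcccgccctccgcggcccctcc
Cish promoter, chr9:107296409-107296708, plus strand: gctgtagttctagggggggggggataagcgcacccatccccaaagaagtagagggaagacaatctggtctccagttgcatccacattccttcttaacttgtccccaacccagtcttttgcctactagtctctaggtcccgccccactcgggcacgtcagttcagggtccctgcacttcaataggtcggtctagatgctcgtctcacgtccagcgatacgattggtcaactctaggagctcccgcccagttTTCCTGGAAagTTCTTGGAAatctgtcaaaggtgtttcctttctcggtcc
In the Socs1 window, 2 overlapping GAAANNGAAA matches began at positions -83 and -77 from the start (position 0). The Socs3 window held 1 TTCNNNGAA match at position -154, and the Cish window held 2, at positions 0 and 11. Over all 32851 RefSeq promoters of this length, 8.30% held at least 1 TTCNNNGAA and 0.457% held 2 or more. At least 1 GAAANNGAAA was in 3.44% of them and 2 or more in 0.225%. RefSeq windows were used for 7 of the 9 genes, and none for Socs2 or Ptpn2. A further spacing, TTCNNNNGAA, was in 6.95% of promoters and in none of the windows of the 7 genes. Windows of Ptpn1, Ptpn6 and Pias1 and both windows of Pias3 held none of the 3 motifs. A match is a run of letters and was not tested as a binding site. In the table's gene models, Socs3 and Cish extend upstream of the RefSeq starts used here, so those windows lie inside the annotated genes.

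To see which brakes IFNG engaged, each clone's treated libraries were set against its untreated ones. Of the 9 genes, 8 passed the count filter in every comparison, and Socs2 passed in none. Untreated libraries held 1 to 13 fragments of Socs1 and 3 to 24 of Cish. In the IFNG responses these genes thus passed the filter largely through their treated libraries, apart from Cish in WT1. Both are included in the counts and medians below. In WT1, 5 of the 8 rose and 1 fell, where 11.8% of all genes tested rose and 9.47% fell. Among the same 8 genes, 6 rose and 1 fell in WT2 (17.4% and 17% of all genes), in WT3 (18.6% and 17.5%), in KO1 (16.2% and 13.2%) and in KO2 (13.9% and 13.2%). Pooling the clones gave 6 that rose and 1 that fell both in WT (14.8% and 13.9% of all genes) and in KO (15.8% and 14.8%). The median log2FC of the 8 was 0.62 in pooled WT and 0.68 in pooled KO, against -0.0028 and -0.0037 over all genes tested. Each statement on rising or falling rests on edgeR's quasi-likelihood test with an FDR-adjusted p-value under 0.05 over all genes.

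**Figure D1:**
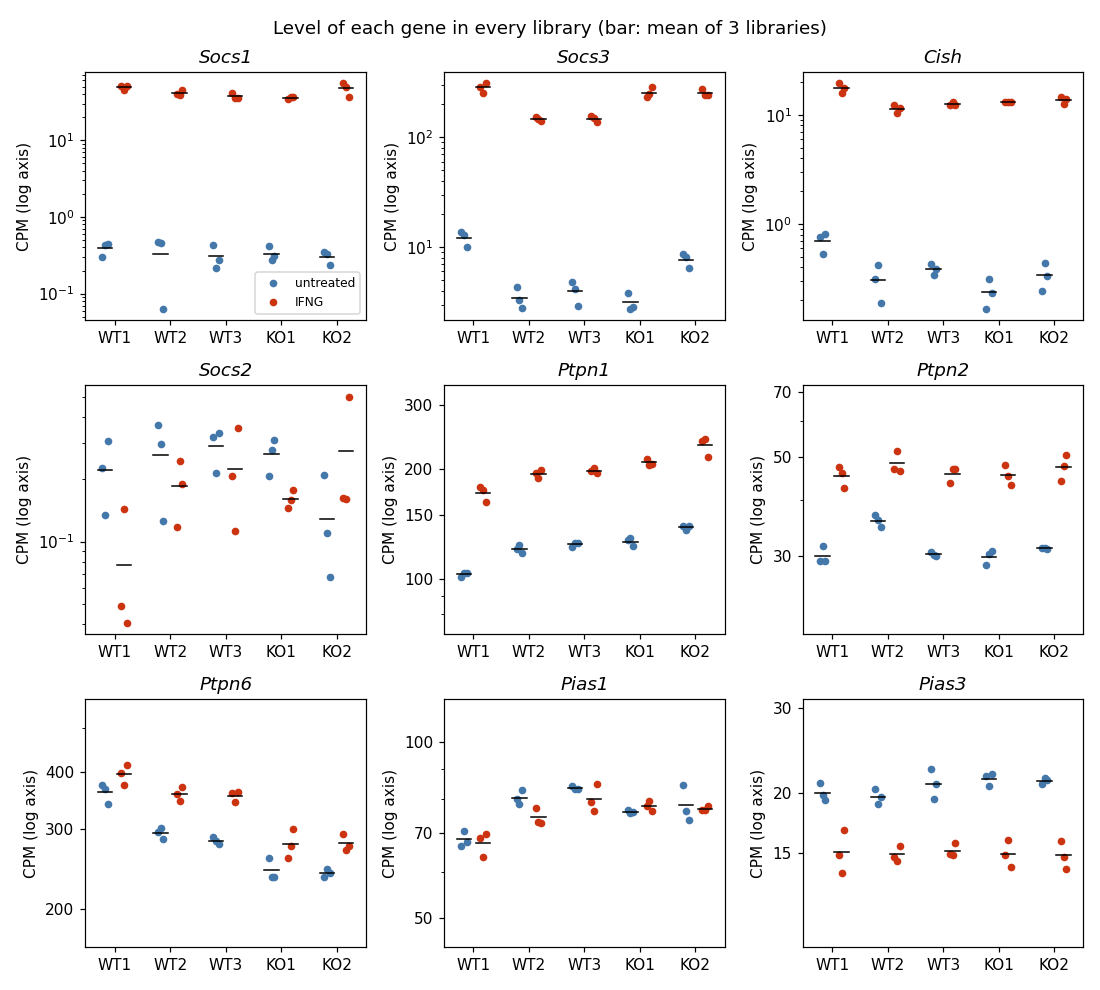
CPM of each gene (log axis) in every library, by clone, with untreated libraries in blue, IFNG libraries in red and a bar at the mean of 3 libraries. Treated and untreated libraries were fully separated for Socs1, Socs3, Cish, Ptpn1, Ptpn2 and Pias3 and overlapped for Socs2 and Pias1, while Ptpn6 was lower in both KO clones in either treatment.

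Socs1 (ENSMUSG00000038037.5, chr16:10782240-10785536, mm10, minus strand) encodes an inhibitor that blocks JAK kinase activity directly, and it showed the largest response of the 8 genes in every clone. Untreated Socs1 was at 0.303, 0.435 and 0.441 CPM in WT1, 0.469, 0.464 and 0.0629 in WT2, 0.426, 0.214 and 0.278 in WT3, 0.414, 0.276 and 0.308 in KO1 and 0.347, 0.329 and 0.235 in KO2. After IFNG the values were 51.5, 45.1 and 51.2 in WT1, 40.5, 38.5 and 45.5 in WT2, 41.8, 35.4 and 35.4 in WT3, 34.9, 36.1 and 36.6 in KO1 and 55.3, 49.8 and 36.7 in KO2. Every treated library lay far above every untreated one, and the treated libraries of the WT and KO clones overlapped. The untreated values rest on 1 to 13 fragments per library, and the treated values on 602 to 2051. Socs1 rose by a log2FC of 6.93 ± 0.14 (SE) in WT1, 6.85 ± 0.17 in WT2, 6.88 ± 0.16 in WT3, 6.76 ± 0.12 in KO1 and 7.28 ± 0.22 in KO2, or from 109-fold to 155-fold, with edgeR FDR-adjusted p-values of 1.03e-12 or less in each clone. Its response did not differ detectably among the clones (edgeR FDR-adjusted p = 0.967), nor did its untreated level (0.895).

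Socs3 (ENSMUSG00000053113.3, chr11:117966079-117970047, minus strand), whose protein binds both JAKs and gp130-type receptors, rose in every clone, but by amounts that differed among them. Untreated Socs3 was at 13.8, 12.9 and 9.94 CPM in WT1, 4.32, 3.29 and 2.77 in WT2, 4.83, 4.16 and 2.89 in WT3, 3.85, 2.72 and 2.85 in KO1 and 8.57, 8.05 and 6.52 in KO2. WT1 was above all other clones, KO2 came next, and WT2, WT3 and KO1 overlapped. After IFNG, Socs3 was at 288, 256 and 312 CPM in WT1, 152, 147 and 142 in WT2, 157, 149.98 and 138 in WT3, 233, 251 and 285 in KO1 and 274, 243 and 243 in KO2. The treated libraries thus formed a lower range in WT2 and WT3 and a higher one in WT1, KO1 and KO2, which does not follow the genotype.
The log2FC of Socs3 was 4.54 ± 0.11 (SE) in WT1, 5.41 ± 0.077 in WT2, 5.19 ± 0.092 in WT3, 6.38 ± 0.11 in KO1 and 5.04 ± 0.084 in KO2. KO1 paired a low untreated level with a high treated level and had an 83.4-fold rise, against a 23.3-fold rise in WT1, where the untreated level was highest. Of the 8 genes, Socs3 alone had a response that was called as different among the 5 clones (edgeR F-test, FDR-adjusted p = 1.82e-06), a test that called 3.68% of all genes. The treatment by genotype term was 0.64 ± 0.21 (95% confidence interval 0.22 to 1.07, FDR-adjusted p = 0.181). It rested on KO1, since it was 1.44 without KO2 (FDR-adjusted p = 0.000719) and 0.12 without KO1 (0.963), and it was 0.26 without WT1 (0.711).

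Cish (ENSMUSG00000032578.7, chr9:107296026-107302784, plus strand), a SOCS family member known as a STAT5 target, rose strongly from a very low level. Untreated Cish was at 0.758, 0.536 and 0.815 CPM in WT1, 0.312, 0.422 and 0.189 in WT2, 0.426, 0.343 and 0.389 in WT3, 0.166, 0.316 and 0.231 in KO1 and 0.243, 0.439 and 0.336 in KO2. After IFNG it was at 19.5, 15.9 and 17.5 CPM in WT1, 12.2, 10.3 and 11.5 in WT2, 12.4, 13 and 12.3 in WT3, 13.2, 13 and 13.2 in KO1 and 14.5, 12.5 and 14 in KO2. WT1 was highest in both treatments, with no overlap with any other clone. The log2FC of Cish was 4.63 ± 0.16 (SE) in WT1, 5.12 ± 0.20 in WT2, 5.01 ± 0.16 in WT3, 5.78 ± 0.17 in KO1 and 5.32 ± 0.16 in KO2, all called. Both KO values lay above all 3 WT values, although a difference in response was not called among clones (FDR-adjusted p = 0.328) or between genotypes (0.66 ± 0.22, 95% confidence interval 0.21 to 1.1, FDR-adjusted p = 0.231).

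Socs2 (ENSMUSG00000020027.18, chr10:95385362-95417180, minus strand), known for limiting growth hormone signalling, was barely detected. It had 2 to 9 fragments per untreated library and 1 to 10 per treated library, or 0.0672 to 0.365 CPM and 0.0407 to 0.499 CPM. The treated and untreated ranges overlapped, and a change could not be detected at this depth.

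**Figure D2:**
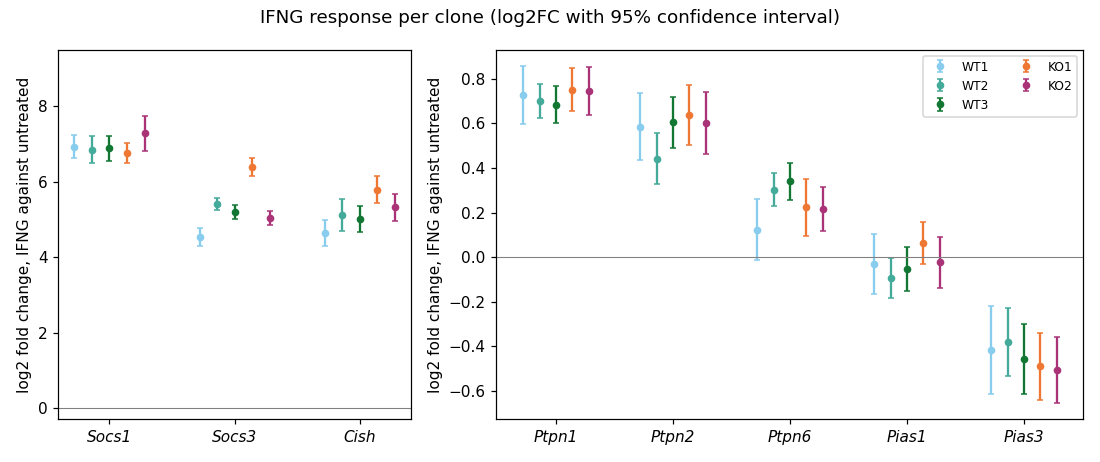
Log2FC of each tested gene after IFNG in each clone, with bars for the 95% confidence interval, on separate vertical scales for Socs1, Socs3 and Cish (left) and for the phosphatases and PIAS genes (right). Socs3 spread from 4.54 in WT1 to 6.38 in KO1, while Ptpn1 stayed between 0.68 and 0.75 in all clones.

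The phosphatases were expressed before treatment and rose much less. Ptpn1 (ENSMUSG00000027540.13, chr2:167932057-167979385, plus strand) encodes PTP1B, which acts on JAK2 and TYK2. Untreated Ptpn1 was at 101, 104 and 104 CPM in WT1, 121, 124 and 118 in WT2, 123, 125 and 125 in WT3, 128, 129 and 123 in KO1 and 139.9, 137 and 139 in KO2. After IFNG it was at 179, 175 and 162 CPM in WT1, 195, 189 and 199 in WT2, 198, 202 and 195 in WT3, 214, 206 and 207 in KO1 and 239, 243 and 216 in KO2. Every treated library was above every untreated one, and WT1 was lowest and KO2 highest in either treatment. Ptpn1 rose by a log2FC of 0.73 ± 0.060 (SE) in WT1, 0.70 ± 0.036 in WT2, 0.68 ± 0.039 in WT3, 0.75 ± 0.044 in KO1 and 0.75 ± 0.050 in KO2. The 95% confidence interval of the KO minus WT difference in response ran from -0.04 to 0.11.

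Ptpn2 (ENSMUSG00000024539.17, chr18:67665511-67724595, minus strand) encodes TC-PTP, which removes phosphate from JAKs and STATs. It lay between 28.6 and 37.0 CPM in the 15 untreated libraries and between 42.6 and 51.6 CPM in the 15 treated ones, without overlap. WT2 was highest untreated, at 37.0, 36 and 34.8 CPM, above every library of the other 4 clones. The log2FC of Ptpn2 was smallest in WT2 (0.44 ± 0.055) and ran from 0.59 to 0.64 in the other clones, all called. A difference of these responses among clones was not called (FDR-adjusted p = 0.644).

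Ptpn6 (ENSMUSG00000004266.15, chr6:124720707-124738714, minus strand) encodes SHP-1, a phosphatase of blood cells that acts at receptors and JAKs. Untreated Ptpn6 was at 374, 367 and 339.7 CPM in WT1, 295, 300.3 and 284 in WT2, 288, 282 and 277 in WT3, 259, 235 and 235 in KO1 and 235, 245 and 239 in KO2. After IFNG it was at 398, 374 and 413 CPM in WT1, 357, 346 and 371 in WT2, 359, 344 and 362 in WT3, 258, 274 and 300.1 in KO1 and 292, 269 and 275 in KO2. All KO libraries were below all WT libraries of the same treatment, and WT1 was highest in both. Ptpn6 rose in WT2 (log2FC 0.30 ± 0.035), WT3 (0.34 ± 0.039), KO1 (0.22 ± 0.060) and KO2 (0.22 ± 0.046), and its log2FC in WT1 was 0.12 ± 0.064 (FDR-adjusted p = 0.219). The call in KO1 (FDR-adjusted p = 0.0119) was lost without either of 2 untreated libraries, although the log2FC stayed at 0.20 (FDR-adjusted p = 0.0604) and 0.19 (0.0527). In pooled WT the call (log2FC 0.25, FDR-adjusted p = 0.0054) was lost without WT2 (log2FC 0.22, FDR-adjusted p = 0.10) or without WT3 (log2FC 0.20, FDR-adjusted p = 0.101).

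The PIAS genes did not rise. Pias1 (ENSMUSG00000032405.10, chr9:62878368-62987924, minus strand), whose protein was named as an inhibitor of activated STATs, lay between 66.5 and 84.5 CPM untreated and between 63.6 and 84.8 CPM after IFNG. Over all clones the treatments overlapped. In WT2, however, the treated libraries (77.3, 73.1 and 72.8 CPM) were all below the untreated ones (79.9, 78.3 and 83.0 CPM). The log2FC of Pias1 ran from -0.09 in WT2 (95% confidence interval -0.18 to -0.005) to 0.06 in KO1, with no call in any clone. The 95% confidence interval of its response was -0.18 to 0.06 in pooled WT and -0.06 to 0.09 in pooled KO.
Pias3 (ENSMUSG00000028101.18, chr3:96696384-96706070, plus strand), named for STAT3, fell in all 5 clones. It was at 19 to 22.4 CPM in the 15 untreated libraries and at 13.7 to 16.8 CPM in the 15 treated ones, so the treatments did not overlap. The log2FC of Pias3 was -0.42 ± 0.092 (SE) in WT1, -0.38 ± 0.073 in WT2, -0.46 ± 0.074 in WT3, -0.49 ± 0.070 in KO1 and -0.51 ± 0.069 in KO2, with edgeR FDR-adjusted p-values of 0.00418 or less. Neither its untreated level (FDR-adjusted p = 0.326) nor its response (0.919) differed detectably among the clones.

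Per exon length, the order of the genes changed with treatment. In untreated cells, Ptpn6 was highest at 101 CPM per kb of exon (mean of 15 libraries), followed by Ptpn1 at 22.2, Pias1 at 11.3, Ptpn2 at 10.1, Pias3 at 5.28, Socs3 at 2.11, Socs1 at 0.115, Cish at 0.0615 and Socs2 at 0.0245. After IFNG, Ptpn6 was still first at 119, Socs3 came next at 75.4 and then Ptpn1 at 36.4. Ptpn2 at 14.9 and Socs1 at 14.5 CPM per kb then lay next to each other, and their clone means overlapped (14.5 to 15.5 and 12.3 to 16.9). Pias1 at 11, Pias3 at 3.83, Cish at 2.13 and Socs2 at 0.0193 followed. Clone means of Pias1 and Ptpn2 also overlapped before treatment, at 9.99 to 12.2 and 9.54 to 11.5 CPM per kb. Socs1, with a far larger fold change than Socs3, thus stayed below it on this scale. These values use the summed exon length of each gene model, which for Socs2 and Cish is 9531 and 6419 bases.

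**Figure D3:**
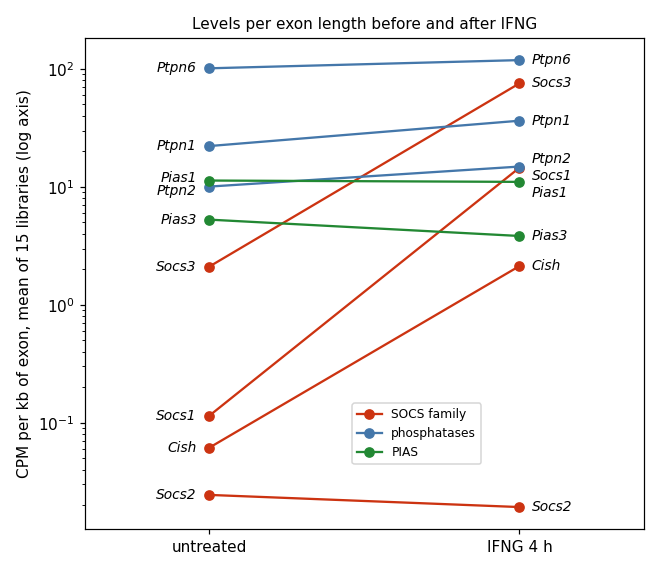
Mean level of each gene over 15 untreated and 15 IFNG libraries, in CPM per kb of exon (log axis), with SOCS family genes in red, phosphatases in blue and PIAS genes in green. Socs3 moved from 2.11 to 75.4, above Ptpn1 at 36.4, and Socs1 from 0.115 to 14.5, next to Ptpn2 at 14.9.

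To ask whether the deletion clones differed in these brakes, KO and WT libraries were compared within each treatment. The treatment by genotype term called none of the 8 genes, in a test that called 1.02% of all genes (151 at an FDR-adjusted p under 0.05 and 1374 at an unadjusted p under 0.05). Socs3 and Cish were the genes among the 8 with an unadjusted p under 0.05 in that fit. In untreated cells 2 of the 8 were called (26.6% of all genes), and the same 2 after IFNG (23.9% of all genes), namely Ptpn1, which was higher in KO (as were 12.2% of all genes untreated and 10.9% after IFNG), and Ptpn6, which was lower (14.4% and 13%). With the clone as the unit, the mean response of 2 KO clones was set against 3 WT clones by a two-sided exact permutation test, whose smallest possible p is 0.1. Cish (KO minus WT log2FC 0.63) and Pias1 (0.079) reached that p of 0.1 in the exact permutation test, and for the other 6 genes the exact p ran from 0.2 to 0.8.

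Ptpn6 was lower in KO by a log2FC of -0.38 ± 0.072 untreated (FDR-adjusted p = 0.00111) and of -0.41 ± 0.047 after IFNG (2.07e-05). Genes around it were lower as well. Of 118 tested genes within 5 Mb of Ptpn6, 72 were called lower and 4 higher in untreated KO, with a median log2FC of -0.35, and after IFNG 68 of 117 were lower and 4 higher, with a median of -0.32. The other 571 tested genes of chromosome 6 had a median log2FC of -0.25 untreated, and 563 had -0.26 after IFNG, while the median over all genes was -0.00040 and 0.00097. In each clone's level against the mean of the other 4 clones, the 104 neighbours above 1 CPM had an untreated median of -0.20 in KO1 and -0.26 in KO2 (log2), beside -0.26 and -0.28 for Ptpn6 itself and -0.15 and -0.19 for the median of the rest of the chromosome. In WT1, WT2 and WT3 the neighbours had medians of 0.16, 0.16 and 0.15, beside 0.45, 0.08 and 0.01 for Ptpn6. Ptpn6, its neighbours and the rest of the chromosome were thus all lower in both KO clones, whereas the high Ptpn6 level of WT1 exceeded that of its neighbours. The part of this shift in the Ptpn6 difference was not tested.

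**Figure D4:**
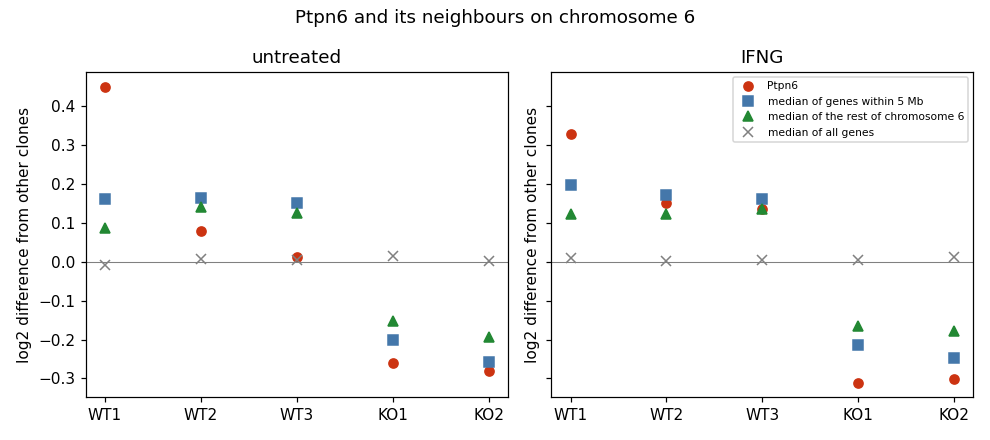
Log2 difference of each clone from the mean of the other clones for Ptpn6 (circles) and the medians of genes within 5 Mb (squares), of the rest of chromosome 6 (triangles) and of all genes (crosses), untreated and after IFNG. Both KO clones lay below 0 for Ptpn6, its neighbours and the rest of the chromosome, and all genes together lay near 0.

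Ptpn1 was higher in KO by a log2FC of 0.19 ± 0.056 untreated (FDR-adjusted p = 0.0191) and of 0.23 ± 0.057 after IFNG (0.00719). The calls were lost without KO2, where the log2FC was 0.12 untreated (FDR-adjusted p = 0.259) and 0.16 after IFNG (0.133). Without WT1 the log2FC was also smaller, at 0.11 untreated (FDR-adjusted p = 0.0195) and 0.16 after IFNG (0.00654), and was called. Against the mean of the other clones, untreated Ptpn1 differed most in WT1 (-0.31, log2) and next in KO2 (0.23). Around Ptpn1, 25 of 90 tested neighbours within 5 Mb were called higher and 7 lower in untreated KO, with a median log2FC of 0.12, where 12.2% of all genes were higher and the rest of chromosome 2 had a median of 0.07. In WT1 the untreated neighbours had a median of 0.08 against the other clones while Ptpn1 itself was at -0.31. Without WT1 the log2FC of Ptpn6 was -0.25 untreated (FDR-adjusted p = 9.94e-06) and -0.36 after IFNG (3.96e-06). With counts summed per clone, a fit that called 1 gene in either treatment, the log2FC of Ptpn1 was 0.19 untreated (FDR-adjusted p = 0.572) and 0.24 after IFNG (0.485). That of Ptpn6 was -0.38 (0.359) and -0.41 (0.27), so the calls were lost. The sizes were bound to stay close, since the same counts were summed, and add no support.
For the remaining genes, the KO against WT log2FC in untreated cells was -0.73 ± 0.30 for Cish (FDR-adjusted p = 0.080), with values highest in WT1, and -0.29 ± 0.41 for Socs3 (0.641). After IFNG it was 0.40 ± 0.18 for Socs3 (FDR-adjusted p = 0.126), and without WT1 it was 0.78 (2.92e-08). Socs1 differed by -0.16 ± 0.27 untreated and by -0.04 ± 0.11 after IFNG, and neither value was called. Untreated levels were also compared among single clones. Across the 5 clones the edgeR F-test called 6 of the 8 genes, all but Socs1 and Pias3, where 73.2% of all genes were called.

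Among the STAT transcription factors on which these brakes act, the log2FC in pooled WT and pooled KO was 2.71 and 2.92 for Stat2, 2.30 and 2.25 for Stat3 and -0.24 and -0.20 for Stat6, all called. Stat5b rose as well, with a log2FC of 0.90 in pooled WT, 0.74 in KO1 and 0.71 in KO2, all called. Stat5a had a log2FC of 0.36 in pooled WT and was not called there. The lists that follow were counted whole, beside all genes tested, of which 14.8% rose and 13.9% fell in pooled WT and 15.8% rose and 14.8% fell in pooled KO. Among 14 receptor and JAK genes, 3 rose and 5 fell in pooled WT, and 5 rose and 6 fell in pooled KO. In single clones, 5 rose and 6 fell in WT1, 6 and 5 in WT2, and 5 and 5 in WT3. In KO1 6 rose and 6 fell, and in KO2 5 and 6, with the single-clone shares of all genes given above. The lower count in pooled WT, a fit without a clone term, was thus not seen in the single WT clones. In pooled WT, Csf2rb, the shared beta chain of the GM-CSF receptor, rose by a log2FC of 1.37, and the receptor chains Il10rb and Ifnar1 had log2FC values of -0.71 and -0.64. Of 5 other negative regulators, 2 rose and 2 fell in both genotypes. Usp18, which restrains type I interferon receptor signalling, rose (log2FC 2.63 for pooled WT, 2.89 for pooled KO), while Pdlim2, a ubiquitin ligase for STATs, and Sh2b3, an adaptor that binds JAK2, fell (log2FC -0.61 and -0.33 in WT).

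Of 8 further SOCS, PIAS and phosphatase genes, 3 rose and 3 fell in pooled WT (14.8% and 13.9% of all genes), and 2 rose and 1 fell in pooled KO (15.8% and 14.8%). In single clones, 3 of these 8 rose and 1 fell in WT1, WT3, KO1 and KO2, and 3 rose and 2 fell in WT2. The changes among them in pooled WT were far smaller than those of Socs1, Socs3 and Cish, with the largest for Ptprc, which encodes the phosphatase CD45 (log2FC 0.69), Socs7 (0.54) and Socs5 (-0.33). The machinery through which SOCS and PIAS proteins act was counted against the same shares. None of 4 genes of the SOCS box ubiquitin ligase was called in pooled WT and 1 rose in pooled KO (Cul5, log2FC 0.15), while of 6 SUMO conjugation genes none was called in pooled WT and 1 fell in pooled KO (Uba2, log2FC -0.11).

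Over all 30 libraries, the genes whose log2(CPM + 0.5) was most alike were sought among the 12345 genes that averaged 1 CPM or more. These correlations describe libraries that share clones and, for induced genes, mainly the step between treatments. Socs1 was most like Irf1, Igtp and Serpina3f (Pearson's r = 0.997 for each, n = 30 libraries). Cish was most like Irf1 (r = 0.995), Gbp2b (0.994) and Ly6a (0.994). Socs3 was most like Arid5b (r = 0.994), Tap1 (0.993) and Tmem173 (0.991). Among the phosphatases, Ptpn1 was most like Cndp2 (r = 0.973), Ptpn2 like H2-T24 (0.968) and Ptpn6 like Map4k4 (0.952). Pias3 was most like Wdr81 (r = 0.963) and Pias1 like Me1 (0.890). Socs2, at a few fragments per library, reached no more than 0.604, with Wdr48, followed by Kat5 (0.599) and Slmap (0.582).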

How the data were processed

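RNA-seq libraries were aligned by the authors to mm10 with HISAT2 2.1.0, kept where uniquely aligned (SAMtools 1.10) and counted per gene with featureCounts 1.6.2 in reversely stranded mode, and the deposited table holds raw counts of fragments per gene without normalization. Its header names Gencode vM18 where the methods name RefSeq, and a fragment over overlapping genes was counted for each. No gene shared exons with any of the 9 genes on the same strand. Of 14 tables, 1 was used, since the headers of the other 13 list subsets of its libraries.

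Counts were tested with edgeR 4.0.16 in R 4.3.3 (filterByExpr, TMM, glmQLFit, glmQLFTest, Benjamini-Hochberg adjustment over all genes tested, threshold 0.05), after tests on simulated data. SE is the absolute fitted coefficient, unshrunk and on the log2 scale, over the square root of F. The log2FC, on which confidence intervals are centred, is edgeR's slightly shrunken value. Levels are CPM on TMM factors from 14870 genes. Pooled comparisons and KO against WT had no clone term. The interaction was fitted with clone and treatment.

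Alternatives were DESeq2 1.42.0, RLE factors, other count filters, a clone term, counts summed per clone, and leaving out libraries or clones. The 9 genes, the pathway lists and the named genes were chosen with earlier results of these data known. Named genes were all 9, up to 3 per list by absolute log2FC in pooled WT, and the most correlated genes. For the STATs, Stat5b, Stat5a and Stat6 were named in addition. Genes near Ptpn1 and Ptpn6 were examined after their KO against WT values had been seen. Depth limits Socs2, Cish and untreated Socs1. An item withheld for evaluation is not reported here.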

Additional observations from a re-analysis of the deposited data

Results flagged for a closer look

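Socs3 was flagged because its response differed among the 5 clones (edgeR F-test, FDR-adjusted p = 1.82e-06), with log2FC values from 4.54 in WT1 to 6.38 in KO1. Among the other genes examined, the treatment by genotype term was called for Ifngr2, which encodes a chain of the IFNG receptor. The KO response of Ifngr2 was higher by 0.30 on the log2 scale, from a log2FC of -0.54 in pooled WT and -0.23 in pooled KO. The term was called as well for Gbp2b (0.85) and Dicer1 (-0.36), which served as checks of the treatment and the deletion.

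Of 36 sets of 6 or 9 libraries checked for a library far from the rest, 2 were flagged, where chance flags about 1 in 20. Socs2 was at 0.499 CPM in 1 treated KO2 library, with the next KO library at 0.178. Pias1 was at 84.5 CPM in 1 untreated KO2 library, with the next at 76.7.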

How the results depend on the processing

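Counts of genes called moved by more than 1.5 times in 13 of 100 alternatives. The interaction, with 151 genes called, gave 384 without a count filter, 564 without WT1, 37 without WT2, 82 without WT3 and 21 without KO1. KO against WT gave 6472 without WT1, 1674 without KO1 and 1 with counts summed per clone in untreated cells (main count 3689), and 5992, 1411 and 1 after IFNG (main count 3258). A clone term gave 6190 genes in pooled WT (main count 3840), and dropping the filter gave 919 for the response among clones (main count 547). Leaving out 1 library gave 2315 to 3223 genes in WT1, 3914 to 4361 in WT2, 3991 to 5255 in WT3, 3369 to 4221 in KO1 and 3029 to 3906 in KO2. Among the 9 genes these gave 6 calls in WT1, 7 in WT2, WT3 and KO2, and 6 to 7 in KO1.

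Of the 9 genes, the interaction called 1 (Socs3) without a count filter, where 384 of 29004 genes were called, and Socs3 again without KO2. Without the filter, Socs3 had almost the same log2FC (0.65, against 0.64 in the main fit). Its SE was 0.075 against 0.21, and its edgeR FDR-adjusted p was 3.17e-15. DESeq2 gave a log2FC of 0.64 (FDR-adjusted p = 0.289). The low p-value without the filter thus rested on the smaller SE and not on a larger difference between genotypes. Without KO2, KO against WT called only Ptpn6, as lower, in both treatments. With counts summed per clone, KO against WT called 0 of the 9 genes, in fits that called 1 of 16189 genes untreated and 1 of 16197 after IFNG. Counts over all genes for the fits without KO2 were not among those that moved above. Cish in untreated cells was called without WT2 (log2FC -0.92, FDR-adjusted p = 0.0339). Values that changed sign were not called in any fit. In responses they were Pias1 on leaving out 1 library in WT1 (range -0.056 to 0.0047) or KO2 (-0.070 to 0.038) and in pooled KO without KO1 (-0.024), and in the interaction Socs1 without KO2 (-0.16) and Ptpn6 without WT3 (0.0062). In untreated KO against WT they were Socs3 without WT1 (0.54) or KO1 (0.22), Ptpn2 without WT2 (0.015), and Pias1 with no filter (0.0018) or without WT2 (0.020), WT3 (0.053) or KO1 (0.017). After IFNG they were Socs1 without WT1 (0.077) or KO1 (0.14), Cish without WT1 (0.16), Ptpn2 with no filter (0.012) or without WT2 (0.026) or KO1 (0.023), Pias1 without WT1 (-0.00013) and Pias3 with no filter (0.00084). The cause of these changes was not tested. With log2(CPM + 2), the untreated Socs3 excess of WT1 over the other clones was 1.16 (1.41 with a pseudocount of 0.5), and the genes most like Socs3 and Ptpn2 became Tap1 (r = 0.995) and Cmpk2 (0.969). A minimum of 10 counts in every library removed Socs1 and, except for the response of WT1, Cish from comparisons with untreated cells.

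No paired analysis was possible because the columns carry no replicate numbers, and leaving out all libraries of 1 replicate number was not run for the same reason.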
